A study of Mus musculus with 8 samples.

Results

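House dust mite extract was compared directly with timothy grass pollen extract in DC2.4, a mouse dendritic cell line. The comparison took the 2 libraries treated with house dust mite extract (HDM) and the 2 treated with timothy grass extract (Grass), and covered 11455 of the 24054 genes in the table, those with a value of at least 0.5 in 2 or more of the 8 libraries of the series. No untreated library enters the difference itself. The other libraries are 2 left untreated and 2 given cat hair extract (Cat). Their values are given only to place those of HDM and Grass, and they share in the estimate of the spread. All cells, untreated ones included, were of the C57BL/6 strain, grew in RPMI with 10% serum and an antibiotic-antimycotic, and spent 4 h in 0.1% serum before treatment. Each extract was then present at 250 PNU/ml for 4 h. A PNU, or protein nitrogen unit, measures the protein in an extract and says nothing of its other constituents. No vehicle is named for the untreated cells. DC2.4 is a single immortalised line, derived from mouse bone marrow with retroviruses carrying GM-CSF and oncogenes, so its 2 libraries per group describe 1 line and not several animals.

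Dendritic cells take up inhaled material, sense it through pattern recognition receptors and instruct T cells. House dust mite extracts hold proteases, chitin, lipids and traces of microbial products. Grass pollen extracts hold other allergens along with plant lipids, pigments and polyphenols. Neither list is complete, and the contents of the extracts were not compared here. Several routes can carry such mixtures to the nucleus. The aryl hydrocarbon receptor is a ligand-activated transcription factor that binds small aromatic and indole compounds and induces detoxifying enzymes together with its own repressor. NF-kB drives inflammatory genes, and Nrf2 induces genes against oxidants and electrophiles.

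Depth was 41.8 and 31.94 M reads in the HDM libraries and 43.32 and 37.02 M in the Grass libraries. Values are on the deposited scale, which is close to RPM (reads scaled to a common library size). Markers of dendritic and myeloid cells, listed together, were present, and 20 of the 25 passed the filter. Their values summed to between 3647 and 3709 with HDM and between 3598 and 3613 with Grass. At a limma adjusted p under 0.05, 2 of the 20 were higher with HDM, against 1.69% of all tested genes. Emr1 was at 171 and 162 with HDM and 149 and 150 with Grass, and Cd24a at 466 and 478 against 439 and 431. Of the defining dendritic markers, H2-Ab1, Ly75 and Cd209a were at 0 in every library, and Clec9a and Flt3 stood below 0.1. Markers of T, B, NK, mast, epithelial, endothelial and fibroblast cells each summed to at most 3.53 in any HDM or Grass library. The neutrophil list reached 44.1 to 66.7, almost all of it from Cxcr2. The series' design text calls the samples of a group independent. A p-value here reflects nothing beyond the variation among the libraries.

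Most genes differed little between the 2 extracts. limma called 265 of 11455 genes (2.31%) at a Benjamini-Hochberg adjusted p under 0.05, of which 194 (1.69%) were higher with HDM and 71 (0.62%) were lower. Most of these differences were small, with a median size of 0.2 on the log2 scale, against 0.05 over all tested genes. Only 22 genes were called at least 1.5-fold higher with HDM, and 1, the heme oxygenase gene Hmox1, at least 1.5-fold lower. At 2-fold the counts were 6 and 0. Over the 9611 genes with a mean value of at least 5, the median absolute log2 difference was 0.039 between HDM 1 and HDM 2 and 0.041 between Grass 1 and Grass 2. Between single HDM and Grass libraries it was 0.052. The median log2 difference of all tested genes was 0.004. Before adjustment, 1553 of the 11455 tested genes had a limma p under 0.05. In 46.7% of genes both HDM libraries lay on the same side of both Grass libraries, so a lack of overlap alone says little here, and all 265 called genes had it. In bulk RNA, a change in every cell and a change in the share of cells that respond cannot be told apart.

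**Figure D1:**
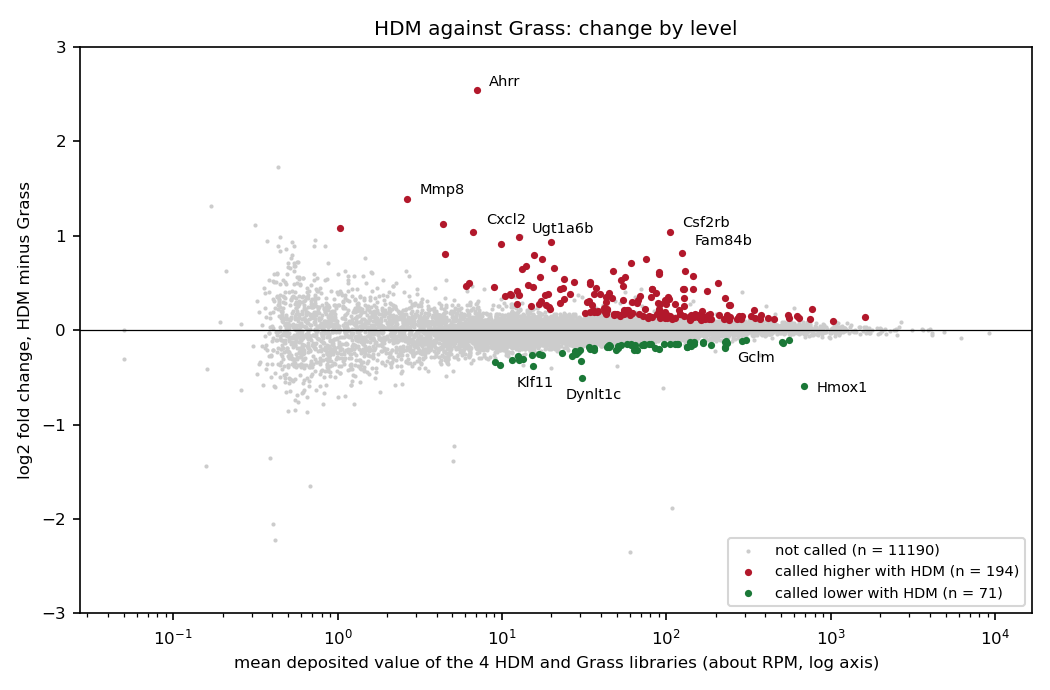
Log2 fold change of HDM over Grass (vertical axis) against the mean value of the 4 libraries (horizontal log axis, about RPM) for each tested gene, with 1 gene (Amd1, at 5.28) outside the drawn range. Red points are the 194 genes called higher with HDM and green points the 71 called lower. Ahrr is the highest red point at 2.55, and Hmox1 is the lowest green point at -0.59.

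How firmly a gene was called varied. Of the 265 genes, 37 higher genes and Hmox1 were called in every alternative fit that gave them an adjusted p. Named below, these are Ahrr, Tiparp, Ugt1a6a, Csf2rb, Csf2rb2, Ncf4, Spint1, Fam84b, Dfna5, Eepd1, Nedd9, Lpar6, Smox, Neurl3, Ptgs1, Ptgs2, Exoc3, Cd28, Nfkbiz, Runx1, Slc39a14 and Hmox1. In the 4 fits that each leave out 1 HDM or Grass library, 71 higher genes but only 4 lower genes were called throughout. The 4 are Hmox1, Gclm, Dynlt1c and Nat6. Without limma's trend and robust settings 39 higher and 5 lower genes were called, so within limma most of the other calls needed those settings. The other methods kept more of the 265 genes. Also called by edgeR were 192 of the higher and 71 of the lower genes, and by DESeq2 130 and 31.

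The aryl hydrocarbon receptor genes held the largest difference among the called genes. Ahrr, which encodes the repressor that the receptor induces to limit itself, stood at 12 and 12.1 with HDM, 2.19 and 1.79 with Grass, 1.64 and 1.60 in untreated cells, and 2.21 and 2.01 with Cat. The HDM libraries were far above the other 6, which lay close together. The ratio of the HDM mean (12.1 ± 0.08, SD, n = 2) to the Grass mean (1.99 ± 0.28, SD, n = 2) was 6.06, and the log2 fold change 2.55 ± 0.14 (SE; limma adjusted p = 6.7e-12). Tiparp, a mono-ADP-ribosyltransferase gene that the receptor also induces and whose product feeds back on it, was at 58.2 and 57.0 with HDM and at 37.3 and 37.4 with Grass. Its untreated values, 41.9 and 46.7, lay between them, so Tiparp stood above untreated with HDM and below it with Grass. Its log2 fold change was 0.62 ± 0.05 (SE; limma adjusted p = 9.6e-10).

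The promoters of these genes are shown because the receptor and its partner ARNT bind DNA through the core GCGTG. The windows below run from 250 bases before to 50 after the gene start (RefSeq, build GRCm38.p6), 5′ to 3′ on the strand of the gene. Capitals mark each GCGTG, or CACGC where it lies on the opposite strand.
Ahrr (chr13:74292282-74292581, minus strand): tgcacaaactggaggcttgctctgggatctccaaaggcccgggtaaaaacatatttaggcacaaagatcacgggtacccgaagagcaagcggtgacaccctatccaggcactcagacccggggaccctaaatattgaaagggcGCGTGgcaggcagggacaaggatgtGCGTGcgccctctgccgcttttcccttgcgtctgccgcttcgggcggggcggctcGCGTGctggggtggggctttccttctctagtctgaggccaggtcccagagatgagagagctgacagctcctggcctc
Tiparp (chr3:65528197-65528496, plus strand): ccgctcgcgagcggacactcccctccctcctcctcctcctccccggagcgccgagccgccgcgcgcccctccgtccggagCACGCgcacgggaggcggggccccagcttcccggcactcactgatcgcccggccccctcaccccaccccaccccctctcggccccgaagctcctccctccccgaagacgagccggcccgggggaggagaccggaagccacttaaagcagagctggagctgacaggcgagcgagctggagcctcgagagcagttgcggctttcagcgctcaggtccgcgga
The Ahrr window held 3 matches, starting 107, 82 and 27 bases before the gene start, and the Tiparp window held 1, on the opposite strand, 170 bases before it. The windows of Ugt1a6a and Ugt1a7c held none. GCGTG is short and common on either strand: 32.4% of the 32851 windows held it, as did 57% of the 9206 tested genes with a window, 52.6% of the 154 such genes called higher with HDM and 65% of the 60 called lower. For the longer TNGCGTG, which contains the core, the shares were 9.79%, 11.7% and 6.67%. Among the 18 genes with a window called at least 1.5-fold higher with HDM, 44.4% held GCGTG and 5.56% held TNGCGTG. A match is a description of letters and not a bound site.

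The enzymes downstream gave a graded picture. Ugt1a6a, which glucuronidates small phenols, had values of 22.8 and 21.0 with HDM against 12.8 and 13.2 with Grass, and 12.1 and 12 untreated. Ugt1a6b was at 15.8 and 18.1 against 8.60 and 8.35, and Ugt1a7c at 101 and 94.8 against 74.1 and 74.8. In all 3 the groups stood apart, with log2 fold changes of 0.75, 0.99 and 0.40 (limma adjusted p between 4.7e-07 and 4.4e-08). The Ugt1a genes are overlapping units that share their last exons, so reads in the shared part may be divided between them and the 3 values are not independent. Of the 14 genes on the receptor's list, 10 were tested, 5 were called higher and 0 lower, against 1.69% of all genes called higher. The list's median log2 was 0.28, against 0.004 over all tested genes. This list, like the others, was chosen with earlier results of these data known, and 3 of the 5 are the overlapping Ugt1a genes. The 5 were called in each fit without 1 HDM or Grass library. The receptor itself, Ahr, had values of 5.90 and 5.72 with HDM and 6.43 and 6.14 with Grass (log2 -0.11, limma adjusted p = 0.73). Its partner Arnt (-0.01) and the oxidoreductase gene Nqo1 (0.17, adjusted p = 0.55), which Nrf2 induces as well, were not called either. Below the filter, the monooxygenase gene Cyp1b1 had 9 and 10 reads with HDM, 0 and 1 with Grass and 0 in the other 4 libraries. Cyp1a1, the best known target, had at most 2 reads in any library.

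**Figure D2:**
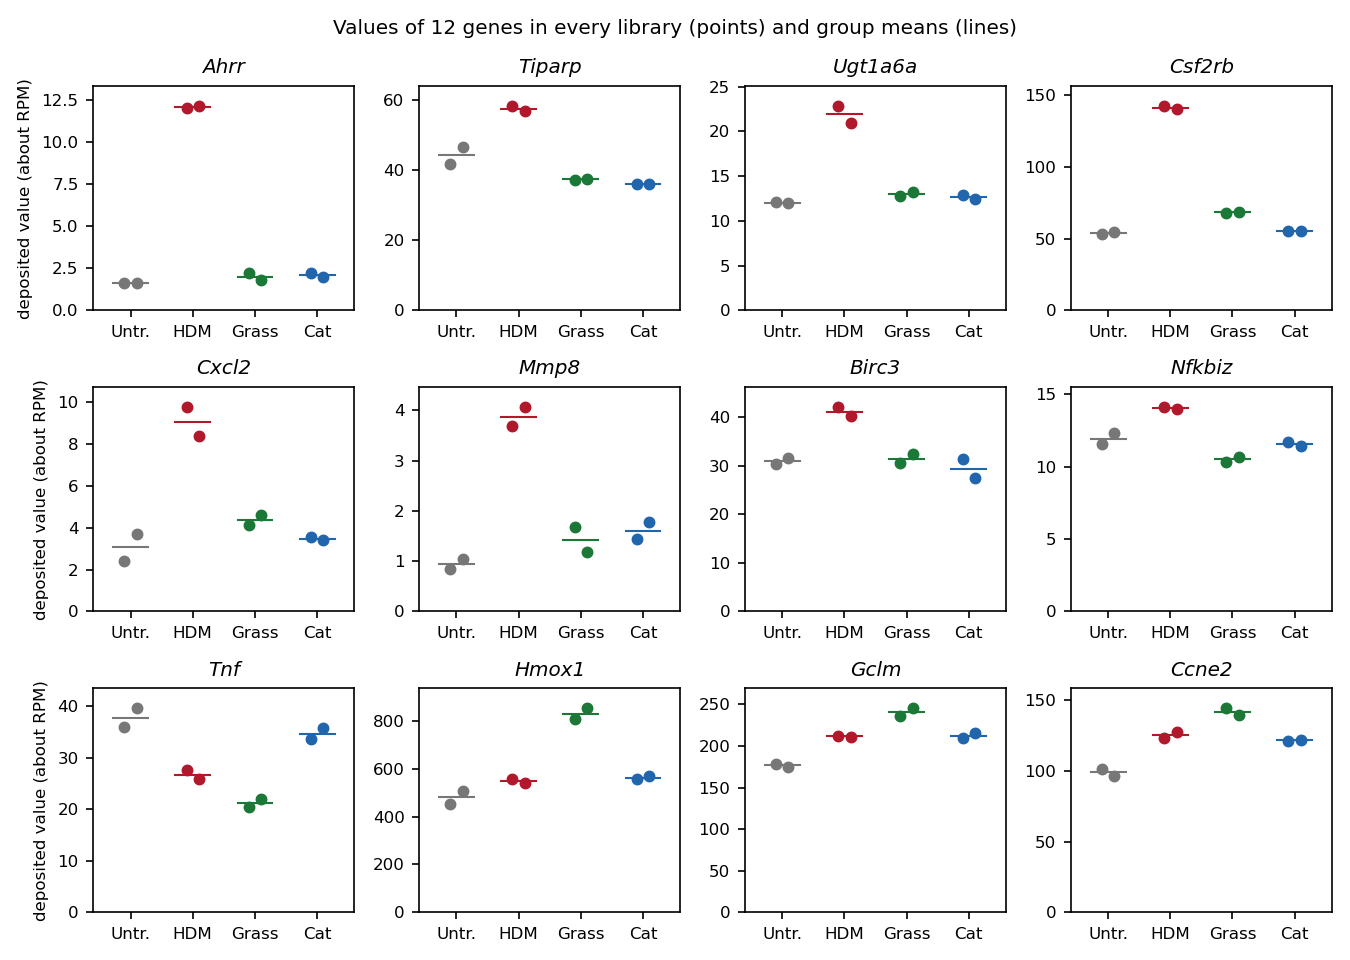
Values of 12 genes in each library (points, about RPM on a linear axis from 0) with group means (lines), for untreated cells and the HDM, Grass and Cat groups. Ahrr, Ugt1a6a, Csf2rb, Cxcl2 and Mmp8 are high with HDM against the other 3 groups, Hmox1 is highest with Grass (805 and 851), and Tnf lies below untreated with both extracts, lowest with Grass (20.5 and 22).

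The second large difference lay in the receptors for GM-CSF and IL-3, cytokines that sustain myeloid and dendritic cells. Csf2rb encodes the signalling chain shared by the GM-CSF, IL-3 and IL-5 receptors. It stood at 142 and 140 with HDM, 67.9 and 68.7 with Grass, 53.1 and 54.8 untreated and 55.5 and 55.6 with Cat. The HDM mean of 141 ± 1.4 (SD, n = 2) was 2.06 times the Grass mean of 68.3 ± 0.52, a log2 fold change of 1.04 ± 0.04 (SE; limma adjusted p = 1.3e-16), the smallest p in the comparison. Csf2rb2, the IL-3-specific copy found in mice, had values of 96.4 and 93.6 with HDM and 55.8 and 56.5 with Grass (log2 0.76 ± 0.06, SE; limma adjusted p = 9.0e-08). The copies are nearly identical and reads may be divided between them. Their sum was 238 and 234 with HDM against 124 and 125 with Grass, so the difference does not depend on how they were divided. Neighbouring Ncf4, for a subunit of the phagocyte NADPH oxidase, was at 62.7 and 63.3 with HDM and 43.0 and 43.9 with Grass, a log2 fold change of 0.54. The ligand-binding chains did not follow. Csf2ra was at 44.2 and 40.5 with HDM and 45.6 and 44.4 with Grass (log2 -0.09, limma adjusted p = 0.46), Il3ra was below 1 in every library, and the M-CSF receptor gene Csf1r was at 523 and 511 against 521 and 513. On this list 2 of 5 tested members were called, both higher, against 1.69% of all tested genes, and the 2 are the copies that may share reads.

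Among other cytokine receptors, Il12rb1, the chain shared by the IL-12 and IL-23 receptors, stood at 5.97 and 6.06 with HDM and 3.21 and 2.29 with Grass, with untreated values of 3.06 and 3.09. Its log2 fold change was 1.12 ± 0.15 (SE; limma adjusted p = 1.5e-05). It was not on the list of 28 other receptor chains, of which 23 were tested and 1 was called, against 2.31% of all genes called in either direction. That gene was Il7r, for the IL-7 receptor chain that also serves TSLP, at 11.8 and 11.6 against 9.39 and 8.85 (log2 0.36, limma adjusted p = 0.044). Its call ended without any 1 of HDM 1, HDM 2, Grass 1 or Grass 2, with adjusted p up to 0.40. Il4ra, the IL-4 and IL-13 receptor chain central to type 2 responses, was at 15.1 and 15.3 with HDM and 15 in both Grass libraries, against 8.88 and 9.02 untreated. The HDM and Grass values of Il4ra differed by 0.02 ± 0.08 (SE; adjusted p = 0.95). Of the 21 tested JAK, STAT and SOCS genes, limma, edgeR and DESeq2 each called 0. An unadjusted limma p under 0.05 was found for 2 of the 21, against 1553 of all 11455 tested genes. The log2 differences of the kinase genes Jak1 and Jak2 were 0.07 and -0.11, and that of Stat6, the factor downstream of IL-4, was -0.07.

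Among chemokines, 2 of 14 tested genes were called higher with HDM, against 1.69% of all tested genes. Cxcl2, a neutrophil attractant, was at 9.74 and 8.37 with HDM, 4.13 and 4.58 with Grass, and 2.42 and 3.71 untreated. The log2 fold change was 1.04 ± 0.15 (SE; limma adjusted p = 1.5e-04). Cxcl10, an interferon-induced attractant of T cells, was at 15.2 and 13.4 against 10.7 and 11.4, with untreated values of 14.9 and 16.3. HDM thus stood near untreated and Grass below it. Its log2 fold change was 0.37 (limma adjusted p = 0.007), and the call ended without HDM 1 or without Grass 1, with adjusted p up to 0.22. None was called lower. Above 0 lay 12 of the 14, against 52% of all tested genes, with a median of 0.23 against 0.004. The other 12 of the 26 listed genes did not pass the filter. Ccl3 and Ccl4, attractants of monocytes, were not called. Ccl3 was at 112 and 115 against 102 and 105 (log2 0.13, limma adjusted p = 0.46), where untreated cells had 200 and 233. Cxcl16 had the widest uncalled difference, 0.96 (adjusted p = 0.093), at values near 1 with HDM and below 0.5 with Grass.

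On the NF-kB list of subunits, inhibitors and targets, 3 of 29 tested members were called higher and 0 lower, against 1.69% and 0.62% of all tested genes. Of the 29, 25 lay above 0, against 52% of all tested genes, and the median was 0.10. Nfkbiz, an atypical inhibitor that promotes a second wave of inflammatory genes, was at 14.1 and 14 with HDM, 10.3 and 10.7 with Grass, and 11.6 and 12.3 untreated (log2 0.42 ± 0.07, SE; limma adjusted p = 0.0011). Birc3, an inhibitor of apoptosis, was at 42.0 and 40.3 with HDM and 30.5 and 32.4 with Grass, and the Grass values matched the untreated ones of 30.3 and 31.5. Nfkb2, the p100 subunit, was at 84.1 and 81.0 against 75.0 and 73.2 (log2 0.15, adjusted p = 0.017). The Nfkb2 call ended without any 1 of the HDM or Grass libraries, with adjusted p up to 0.27. The inhibitors Nfkbia (0.18, adjusted p = 0.17) and Tnfaip3 (0.15, adjusted p = 0.32) were not called.

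Of the cytokine list, 16 of 33 genes were tested and 1 was called higher, against 1.69% of all tested genes. Tnf stood at 27.6 and 25.9 with HDM, 20.5 and 22 with Grass, 35.9 and 39.6 untreated and 33.7 and 35.7 with Cat. Both extracts were thus below untreated, and Grass was the lower. The log2 fold change was 0.33 ± 0.06 (SE; limma adjusted p = 7.9e-04). Without HDM 1 or Grass 1 the call ended, with adjusted p up to 0.06. Il6 and Il1b had at most 5 reads in any library. The cyclooxygenase genes, whose enzymes start prostaglandin synthesis, both were higher with HDM. Ptgs1 was at 174 in both HDM libraries and at 117 and 116 with Grass, and Ptgs2, the inducible form, at 94.5 and 94.4 against 68.4 and 70.8. Untreated Ptgs1 was 119 and 111, near Grass, whereas untreated Ptgs2 was 102 and 109, above both. The log2 fold changes were 0.58 and 0.44 (limma adjusted p = 6.7e-12 and 3.1e-09). C5ar1 and C5ar2, receptors for the complement fragment C5a that lie next to each other in the genome, were higher by 0.26 and 0.28. The C5ar2 call ended without any 1 of the HDM or Grass libraries, with adjusted p up to 0.31.

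Immediate early genes, transcribed within minutes of growth factor or stress signals, were split. Of 35 tested, 7 were called higher with HDM and 1 lower, against 1.69% and 0.62% of all tested genes, with a median of 0.02. Egr1 was at 21.0 and 21.1 with HDM, 18.6 and 17.4 with Grass, 51.1 and 55.1 untreated and 37.9 and 38.0 with Cat. The large contrast for Egr1 was therefore with untreated cells, and the one between HDM and Grass was 0.23 ± 0.05 (SE; limma adjusted p = 0.015). Phlda1, Zfp36 and Junb had the same order, with untreated cells highest and Grass lowest. Phlda1 was at 22.2 and 21.2 with HDM, 16.5 and 16.6 with Grass and 30.3 and 32.7 untreated. Zfp36, whose product degrades cytokine mRNAs including that of Tnf, was at 47.7 and 46.9 with HDM, 40.0 and 40.9 with Grass and 75.5 and 77.2 untreated. Ier3, which modulates NF-kB and survival, differed in its order. It was at 98.6 and 91.1 with HDM, above the 67.8 and 71.9 of Grass and the 70.2 and 75.4 of untreated cells (log2 0.44 ± 0.04, SE; limma adjusted p = 2.1e-07). Ier5, the gene called lower, was at 69.8 and 70.2 with HDM and 76.7 and 77.9 with Grass. The calls of Egr1, Junb, Klf6, Nab1 and Ier5 ended in fits without 1 HDM or Grass library. The adjusted p reached 0.31 for Egr1 (without HDM 1, HDM 2 or Grass 2), 0.39 for Junb (any of the 4, or either Cat library), 0.11 for Klf6 (HDM 2 or Grass 2), 0.28 for Nab1 (HDM 1, HDM 2 or Grass 2) and 0.26 for Ier5 (any of the 4). Of the 19 tested feedback genes of ERK signalling, limma, edgeR and DESeq2 each called 0. Before adjustment, 4 of the 19 had a limma p under 0.05, against 1553 of all 11455 tested genes. The named ones were Dusp5 at 0.28, Spred1 at 0.08, Ets2 at 0.09 and Dusp7 at -0.08.

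Secreted and surface proteases and their inhibitors differed at the extremes. Mmp8, neutrophil collagenase, was at 3.68 and 4.06 with HDM, 1.67 and 1.19 with Grass, and 0.836 and 1.05 untreated. Its log2 fold change of 1.39 ± 0.20 (SE; limma adjusted p = 5.4e-05) was second only to Ahrr among the calls. Spint1, a membrane inhibitor of trypsin-like serine proteases, was at 26.8 and 25.7 with HDM and 13.4 and 14 with Grass, against 12.6 and 12.8 untreated and 11.7 and 12.9 with Cat. The HDM libraries lay well above the other 6, which were close together (log2 0.93 ± 0.07, SE; limma adjusted p = 6.4e-10). Plau, urokinase, was at 572 and 592 with HDM and 517 and 528 with Grass, far under the untreated 1083 and 1195. Its call (log2 0.16, adjusted p = 0.025) ended without any 1 of the HDM, Grass or Cat libraries, with adjusted p up to 0.27. The list of matrix proteases and inhibitors, which holds Mmp8 and Plau but not Spint1, had 2 of 17 tested members called, both higher, against 1.69% of all tested genes. Its median was -0.03 and its members ran from -0.70 to 1.39.

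Lipid and polyamine genes followed. Lpar6, a receptor for lysophosphatidic acid, was at 26.0 and 25.1 with HDM, 16.2 and 16.1 with Grass, and 9.74 and 9.69 untreated, so Grass was intermediate (log2 0.66 ± 0.07, SE; limma adjusted p = 2.1e-07). The other 6 tested receptors and enzymes of that list were not called, including S1pr1, at 9.74 and 9.72 with HDM and 8.71 and 8.83 with Grass. Smox oxidises spermine to spermidine and releases hydrogen peroxide. It was at 162 and 153 with HDM, and its Grass values of 99.0 and 104 were close to the untreated 104 and 111 (log2 0.63 ± 0.04, SE; limma adjusted p = 1.0e-11). Sat1, the acetyltransferase of the same breakdown route, was at 72.9 and 71.4 against 64.6 and 63.9. Its call (log2 0.17, adjusted p = 0.028) ended without any 1 of the HDM or Grass libraries or without Cat 2, with adjusted p up to 0.27. Amd1 and Amd2, near-identical copies for S-adenosylmethionine decarboxylase, had opposite differences. Amd1 was at 103 and 137 with HDM and 9.30 and 0.896 with Grass, and Amd2 at 61.1 and 33.7 against 165 and 171. Their sum was 164 and 170 with HDM and 174 and 172 with Grass. Neither copy was called by limma (adjusted p = 0.21 and 0.09).

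Several further genes among the 15 largest higher calls had HDM apart from every other group. Fam84b was at 161 and 159 with HDM and 90.9 and 90.7 with Grass, where untreated cells had 92.9 and 100 (log2 0.82 ± 0.04, SE; limma adjusted p = 2.2e-14). Eepd1, an endonuclease-family gene, was at 76.8 and 74.9 against 47.1 and 45.7, with untreated values of 51.8 and 53.6 between them. Dfna5 encodes gasdermin E, a pore-forming protein of pyroptosis. It was at 19.9 ± 0.14 (SD, n = 2) with HDM and 11.4 ± 0.04 with Grass, and lower again in untreated cells at 8.53 and 9.45 (log2 0.80 ± 0.08, SE; limma adjusted p = 8.6e-08). Camkmt, a calmodulin methyltransferase, and Tspan8, a tetraspanin, were higher by 0.91 and 0.81. Asb2, a ubiquitin ligase subunit near the filter at 1.18 and 1.72 with HDM and 0.564 and 0.685 with Grass, was higher by 1.08. Its call ended without HDM 2, Grass 1 or Grass 2, with adjusted p up to 0.35. Outside the largest 15, Neurl3, a ubiquitin ligase, had 111 and 108 against 71.6 and 72.5. Nedd9, a scaffold of cell migration, had 17.4 and 16.9 against 10.7 in both Grass libraries. The co-stimulatory receptor gene Cd28 had 40.4 and 39.9 against 28.7 and 27.5, and the transcription factor gene Runx1 had 73.7 and 75.6 against 60.3 and 59.0.

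**Figure D3:**
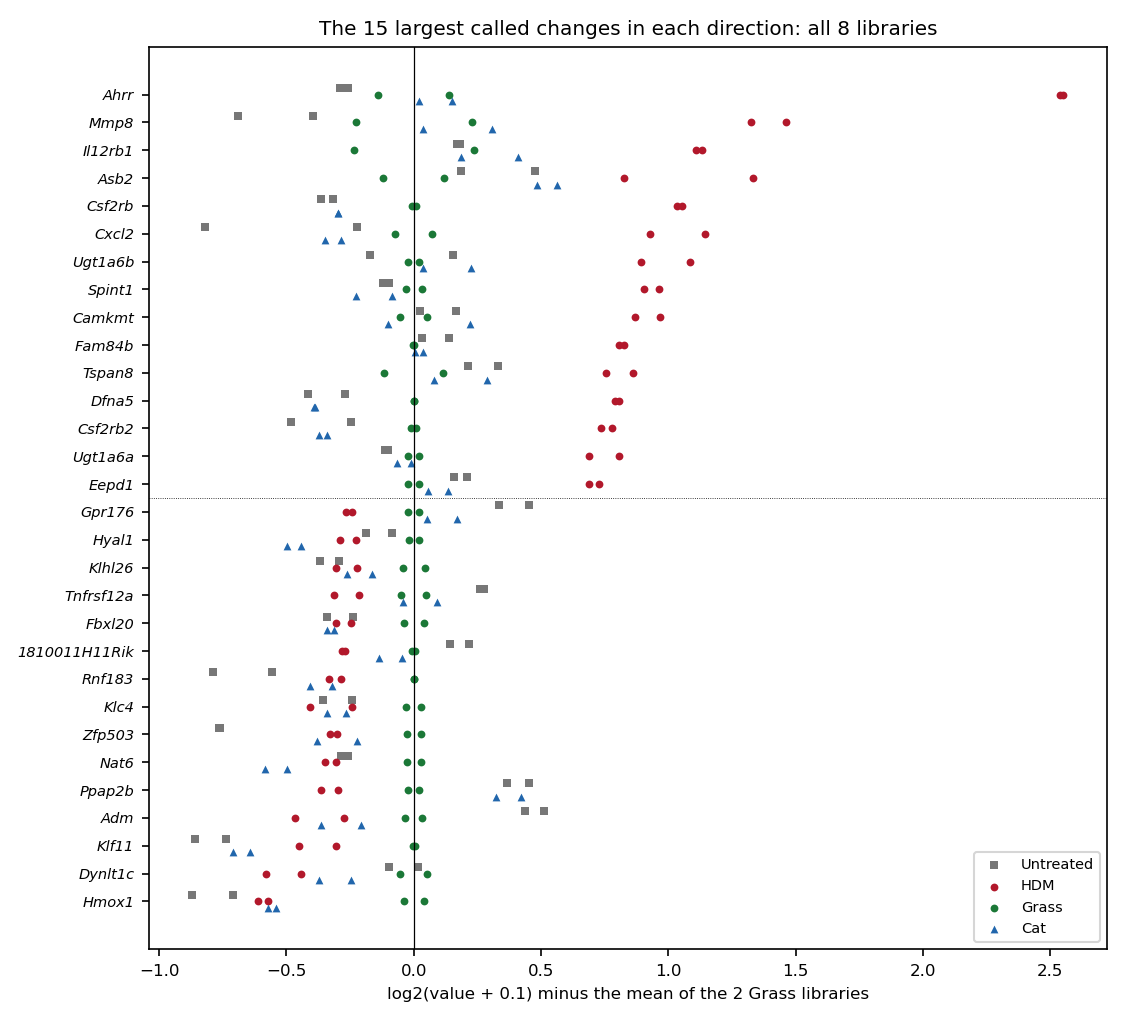
The 15 largest called changes in each direction among genes with a mean of at least 1, with each library's log2(value + 0.1) minus the mean of the 2 Grass libraries on the horizontal axis and genes in rows. Red circles are HDM, green circles Grass, grey squares untreated and blue triangles Cat. In the upper 15 rows both HDM libraries stand to the right of the other 6, and untreated lies left of Grass in several, such as Mmp8, Cxcl2 and Csf2rb. In the lower 15 rows HDM is left of Grass by at most 0.59 on average, and untreated lies on either side.

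The genes lower with HDM, that is higher with Grass, were led by Hmox1, which breaks down heme and is induced by Nrf2 and by heme. It was at 557 and 541 with HDM, 805 and 851 with Grass, 453 and 506 untreated and 556 and 569 with Cat. Grass alone stood out, and HDM and Cat lay together slightly above untreated. The HDM mean of 549 ± 12 (SD, n = 2) was 0.663 times the Grass mean of 828 ± 32 (log2 -0.59 ± 0.05, SE; limma adjusted p = 2.0e-04). Slc40a1, ferroportin, which exports the freed iron, had a difference of the same size that limma did not call. It was at 77.9 and 72.9 with HDM and at 115 and 116 with Grass (log2 -0.62 ± 0.10, SE; limma adjusted p = 0.062), and its untreated values spread from 60.9 to 74.1. edgeR and DESeq2 called it (adjusted p = 0.033 and 1.7e-07).

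Genes for glutathione and thioredoxin metabolism shared the direction at a much smaller size. Of 26 tested Nrf2 redox genes, 8 were called lower with HDM and 1 higher, against 0.62% and 1.69% of all genes. Below 0 lay 19, against 47.9% of all genes, and the median was -0.06. In all 8 the untreated mean lay below both extracts. Gclm, the modifier subunit of the enzyme that starts glutathione synthesis, was at 211 ± 0.77 (SD, n = 2) with HDM, 236 and 245 with Grass and 178 and 175 untreated (log2 -0.19 ± 0.03, SE; limma adjusted p = 2.2e-04). Srxn1, which repairs oxidised peroxiredoxins, was at 133 in both HDM libraries and 149 in both Grass libraries, and untreated at 102 and 110. The other 5 were Slc48a1 (-0.17), Gclc (-0.15), Gstm1 (-0.15), Txnrd1 (-0.13) and G6pdx (-0.11). The calls of Srxn1, Gclc, Txnrd1 and G6pdx ended without any 1 HDM or Grass library (adjusted p up to 0.08, 0.30, 0.16 and 0.39), that of G6pdx also without either Cat library. Slc48a1, a heme transporter, lost its call without HDM 2, Grass 1 or Grass 2 (up to 0.17), and Gstm1 without HDM 1, HDM 2 or Grass 2 (up to 0.26). In those 4 fits 2 to 3 members were called lower. Slc7a11, the cystine importer and a textbook Nrf2 target, did not differ detectably, with 84.9 and 80.2 against 82.3 and 83.4 and untreated values of 48.5 and 48.7 (log2 -0.01 ± 0.04, SE; limma adjusted p = 0.97). Nfe2l2, the gene of Nrf2 itself, was the member called higher, at 196 in both HDM libraries and 173 and 176 with Grass (log2 0.17), and its call ended without Grass 1 (adjusted p = 0.06).

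The Gclm window is printed because Nrf2 binds antioxidant response elements with the core TGACNNNGC. Capitals mark the match, which lies on the opposite strand, 134 bases before the gene start (RefSeq, build GRCm38.p6).
Gclm (chr3:122245307-122245606, plus strand): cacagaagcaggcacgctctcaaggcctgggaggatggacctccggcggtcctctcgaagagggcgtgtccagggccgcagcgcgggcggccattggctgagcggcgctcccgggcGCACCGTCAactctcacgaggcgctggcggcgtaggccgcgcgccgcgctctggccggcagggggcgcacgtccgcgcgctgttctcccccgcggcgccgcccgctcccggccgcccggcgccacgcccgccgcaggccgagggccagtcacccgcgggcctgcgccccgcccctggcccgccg
Counting both strands, TGACNNNGC was present in 12.4% of the 32851 windows, in 17.1% of tested genes with a window, in 17.5% of those called higher with HDM and in 26.7% of the 60 called lower, which is 16 genes. No test of these shares was made.

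The remaining lower calls were spread over many functions. Dynlt1c, a dynein light chain, was at 26.6 and 24.2 with HDM and 37.6 and 34.9 with Grass, and untreated cells at 36.6 and 33.9 matched Grass (log2 -0.51 ± 0.06, SE; limma adjusted p = 1.7e-06). Klf11, a repressor induced by TGF-beta, was at 12.8 and 14.2 against 17.6 and 17.5, with untreated cells lowest at 9.63 and 10.5. Adm, which encodes the vasodilator adrenomedullin, was at 9.13 and 7.97 against 10.8 and 11.3, with untreated cells highest at 15 and 15.8. The calls of Klf11 and Adm ended in fits without Grass 1 or Grass 2, and also without HDM 1 for Klf11 and HDM 2 for Adm, with adjusted p up to 0.16 and 0.31. Bcl2l11, which encodes the pro-apoptotic BIM, was at 82.5 and 86.0 against 95.1 and 97.7 (log2 -0.19), whereas Bmf, another pro-apoptotic member of the same family, was higher with HDM, at 20.1 and 21.2 against 17.1 and 14.8 (0.37). Without HDM 1 or Grass 2 both calls ended, that of Bmf also without HDM 2, with adjusted p up to 0.08 and 0.31.

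Cell cycle genes differed only slightly. Of 40 tested G1/S and replication genes, 4 were called lower with HDM and 0 higher, against 0.62% and 1.69% of all genes. Below 0 lay 33, against 47.9% of all genes, and the median was -0.05. Ccne2, cyclin E2, was at 123 and 127 with HDM, 144 and 139 with Grass and 101 and 96.6 untreated (log2 -0.18 ± 0.03, SE; limma adjusted p = 0.0018). The others were the replication licensing genes Cdc6 (-0.16) and Cdt1 (-0.12) and the ribonucleotide reductase gene Rrm2 (-0.10). Without HDM 1 or Grass 1 the Ccne2 call ended (adjusted p up to 0.09). The Cdc6, Cdt1 and Rrm2 calls ended without any 1 HDM or Grass library (up to 0.19, 0.43 and 0.45), and those of Cdt1 and Rrm2 also without either Cat library. Among 35 mitotic genes 30 lay above 0, against 52% of all genes, with a median of 0.03. The kinesin gene Kif23 was the one called, against 1.69% of all genes called higher, at 97.9 and 96.5 against 84.4 and 84.2 (log2 0.20, limma adjusted p = 3.5e-04).

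Clock, FOXO and hypoxia genes gave 3 calls each, of 14, 25 and 34 tested and in mixed directions, against 2.31% of all genes. The circadian list had the lowest median of all, -0.15 over 14 tested genes, with 9 below 0 and 5 above. Before adjustment 10 of the 14 had a limma p under 0.05. The same held for 6 of the 25 FOXO genes, 7 of the 34 hypoxia genes and 1553 of all 11455 tested genes. The repressors Bhlhe40, at 81.3 and 79.3 against 91.9 and 91.0, and Ciart, at 48.8 and 51.9 against 56.5 and 56.0, were called lower, and Nfil3, at 63.2 and 62.3 against 54.0 and 53.9, was called higher. Without 1 library these calls ended too: Bhlhe40 without HDM 2, Grass 1 or Grass 2 (adjusted p up to 0.13), Ciart without any 1 of the HDM, Grass or Cat libraries (up to 0.42), and Nfil3 without HDM 1 or Grass 2 (up to 0.07). Txnip, a FOXO-list gene that restrains glucose uptake and thioredoxin, was at 847 and 812 with HDM, 706 and 717 with Grass and 586 and 613 untreated (log2 0.22 ± 0.03, SE; limma adjusted p = 1.2e-05). Hif1a was higher by 0.15, at 293 in both HDM libraries against 268 and 258, while its target Bnip3 was lower by 0.11. Without HDM 1, HDM 2 or Grass 2 the Hif1a call ended (up to 0.19), and without any 1 of the HDM, Grass or Cat libraries that of Bnip3 (up to 0.41). Slc39a14, an importer of zinc and of iron, was at 263 and 262 with HDM and 217 and 218 with Grass, and untreated at 272 and 268, so here HDM stayed near untreated and Grass was low (log2 0.27 ± 0.03, SE; limma adjusted p = 2.8e-07). The metallothionein genes Mt1 (0.03, adjusted p = 0.92) and Mt2 (0.27, adjusted p = 0.54) were not called.

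**Figure D4:**
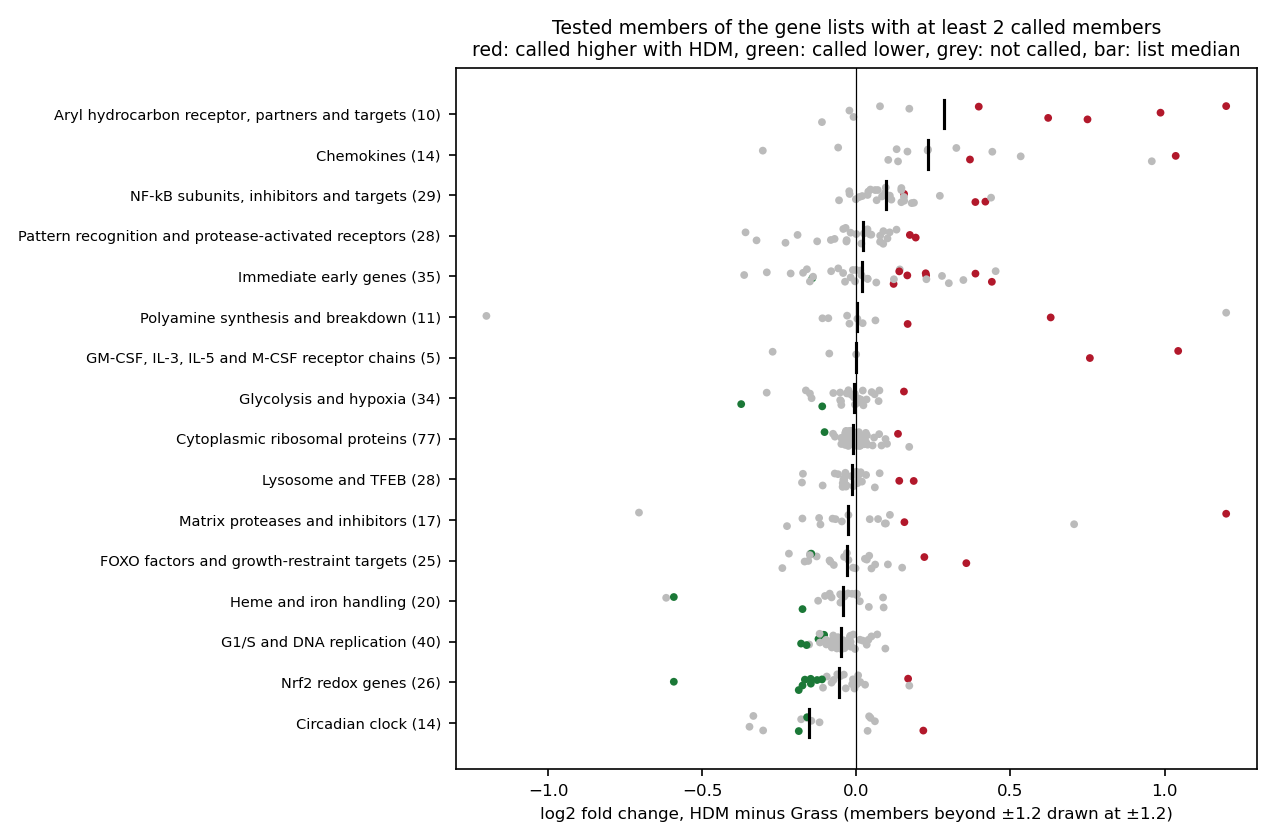
Log2 fold change of HDM over Grass (horizontal axis) for each tested member of the 16 gene lists with at least 2 called members, 1 row per list with the number tested in parentheses. Red points were called higher with HDM, green points lower and grey points were not called, and the black bar is the list's median. The 4 members beyond 1.2 in either direction (Ahrr, Mmp8, Amd1 and Amd2) are drawn at that limit. The aryl hydrocarbon receptor row lies furthest right (median 0.28), and in the Nrf2 row 8 green points lie left of 0 beside 1 red point.

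The series title speaks of an antiviral signature. Of 58 tested interferon-stimulated genes limma called 1, the chemokine gene Cxcl10, a share near the 2.31% of all genes, and the median was -0.02. Isg15 was at 30.1 and 24.2 with HDM and 25.8 and 26.7 with Grass (log2 0.04 ± 0.18, SE; adjusted p = 0.96), and Irf7 at 66.2 and 56.7 against 63.7 and 68.1 (-0.10 ± 0.15, SE; adjusted p = 0.85). In both genes the 2 HDM libraries lay further apart than the group means. The list of pattern recognition and protease-activated receptors and their adaptors had 28 tested members. Its protease-activated receptor genes, F2r, F2rl1, F2rl2 and F2rl3, had 0 reads in every library and were not tested. Tlr7, a sensor of single-stranded RNA, and the kinase gene Irak2 were called higher, by 0.17 and 0.19, against 1.69% of all genes. Both calls ended without any 1 HDM or Grass library, that of Tlr7 also without either Cat library, with adjusted p up to 0.42 and 0.26. Tlr4, which senses endotoxin, was at 71.5 and 69.5 with HDM and 65.7 and 63.1 with Grass (0.13, adjusted p = 0.11).

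limma called no member of the lists for MHC class II and co-stimulation (11 tested), MHC class I (21), p53 targets (25), cholesterol and fatty acids (33), the unfolded protein response (29), heat shock proteins (19), ribosome biogenesis (31), TGF-beta targets (13) and the respiratory chain (79). Over these 9 lists 28 of 261 members had an unadjusted limma p under 0.05, against 1553 of all 11455 tested genes. edgeR and DESeq2 called 0 of the 261. The medians of the 9 lists ranged from -0.02 to 0.04. The ribosome biogenesis list leaned to one side, with 26 of 31 members above 0 and 5 below. Of all tested genes 52% lay above 0. Of the same 31 members, 8 had an unadjusted limma p under 0.05. Of the class II genes, H2-Ab1 had 0 reads in every library, H2-Aa at most 3 and Ciita at most 4, so they were not tested. Cd86, a co-stimulatory ligand, was at 26.0 and 24.7 with HDM and 24.3 and 25.0 with Grass. Actb was at 3845 and 3955 against 3942 and 3850, and Gapdh at 4049 and 4026 against 4192 and 4166. Ribosomal protein genes gave 1 call in each direction among 77, near the 2.31% of all genes, Rps28 and Rps14, at 0.14 and -0.10 on the log2 scale. Neither call held without HDM 1, HDM 2, Grass 1 or either Cat library, nor that of Rps14 without Grass 2, with adjusted p up to 0.46 and 0.42.

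Where the untreated cells lay differed between large and small calls. Of the 22 genes at least 1.5-fold higher with HDM, the untreated mean was below both extracts in 10, between them in 12 and above both in 0. Of all 194 higher genes, it was below both in 40, between in 85 and above both in 69. For those 69, among them Tnf, Egr1, Zfp36, Phlda1, Plau and Ptgs2, being higher with HDM means being less far below untreated. Of the 71 lower genes the untreated mean was below both in 30, between in 19 and above both in 22. In 43 of the higher genes both HDM libraries lay above and both Grass libraries below the untreated pair, as for Tiparp, Fam84b and Nfkbiz, and 7 of the lower genes had the opposite arrangement. Over all tested genes these arrangements were found in 1.22% and 0.821%, or 2.04% together. A called gene has HDM and Grass apart to begin with, so nothing is read from the larger share among calls, and neither extract was tested against untreated here. Cat, which enters neither mean of the contrast, lay below both extracts in 54 of the 194 higher genes, between in 104 and above both in 36.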

How the data were processed

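RNA was measured in 8 libraries of DC2.4 cells, 2 per group. Per the submitters' processing notes, Bowtie2 2.1.0, RSEM 1.2.15, edgeR and mm9 were used, and the role of each, the annotation and the strand setting are not given in the sources used here. The deposited table is named raw counts, but holds a depth-scaled signal: 100% of the values were whole reads times 1 step per library, and the deposited signal sums to between 975215 and 1047501 per column. The authors' lists of changed genes were not used.

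Values went to limma 3.58.1 (R 4.3.3) as log2(value + 0.1), with trend and robust settings, all 8 libraries, 4 group means and 4 residual degrees of freedom. The contrast was HDM minus Grass, adjusted by Benjamini-Hochberg over 11455 genes and called at 0.05. Fold changes of low genes are understated by the pseudocount. Depth sets the precision: libraries held 31.94 to 43.32 M reads. The fit was tested on simulated data. Alternatives were pseudocounts of 0.5 and 1, other filters, 3 other scalings, a replicate block, fewer libraries, and edgeR 4.0.16 and DESeq2 1.42.0 on the recovered reads. Of the 27 rows whose symbol is a date, 14 passed the filter and stayed in the tests, and 0 were called.

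Members and gene lists were chosen with earlier results of these data known. Named genes were the 15 largest calls in each direction with a mean of at least 1, up to 4 members per list with the smallest p, and a hand-picked set that included Isg15, Irf7, Il4ra, Slc7a11, Actb and Gapdh. Genes outside this rule, among them Ptgs1, Ptgs2, Ncf4, Exoc3, C5ar1, C5ar2, Neurl3, Nedd9, Cd28, Runx1, Bcl2l11, Bmf, Amd1, Ahr, Cyp1b1, the weaker Nrf2 members and those of the closing section, were chosen after their values were seen. Promoter windows and gene order came from RefSeq (GRCm38.p6), matched by symbol for 9206 of the 11455 genes, and no mm9 coordinates were used.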

Additional observations from a re-analysis of the deposited data

Results flagged for a closer look

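In 50 called genes every HDM library lay on one side of both untreated libraries and every Grass library on the other. That is 18.9% of the 265 called genes, against 2.04% of all tested genes, but a call requires HDM and Grass to be apart in the first place. Neither extract was tested against untreated cells, and some gaps to untreated are small, as for Nat6 below. The difference is the HDM minus Grass contrast that limma tested, with a Benjamini-Hochberg adjusted p under 0.05 in each. Among the genes named by rule, HDM was above and Grass below untreated for Asb2 (log2 1.08), Fam84b (0.82), Tspan8 (0.81), Eepd1 (0.71), Tiparp (0.62), Nfkbiz (0.42), Il7r (0.36), Mitf (0.19), Tlr7 (0.17) and Ctsl (0.14). Grass was above and HDM below untreated for Nat6 (-0.33) and Hyal1 (-0.26), neighbouring genes of which the second encodes a hyaluronidase. Nat6 was at 27.3 and 26.5 with HDM, 34.4 and 33.1 with Grass and 28.2 and 27.7 untreated, and Hyal1 at 15.6 and 14.9, 18 and 18.5, and 16.0 and 17.2. Of these 12, Tiparp, Fam84b, Eepd1 and Nfkbiz were called under every alternative. Asb2, Il7r, Mitf, Tlr7, Ctsl and Hyal1 were not called in at least 1 of the fits without 1 library, with adjusted p up to 0.35, 0.40, 0.36, 0.42, 0.07 and 0.35.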

How the results depend on the processing

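Directions held for every called gene named by the rule under each alternative. The counts of genes called higher and lower, 194 and 71, moved by over 1.5 times in these cases: 129 and 34 with all 16242 genes with a read tested, 402 and 193 with only the 4 HDM and Grass libraries fitted, 39 and 5 without trend and robust settings, and 34 lower genes with DESeq2 (139 higher). Leaving out 1 library gave 88 to 390 higher and 10 to 176 lower: 88 and 20 without HDM 1, 101 and 11 without HDM 2, 112 and 10 without Grass 1, 104 and 13 without Grass 2, 384 and 172 without Untreated 1 and 390 and 176 without Untreated 2. The cause of the gain without untreated libraries was not tested. Leaving out an HDM or Grass library gives a group with 1 library, which is assumed to vary like the others. The other scalings shifted all differences by -0.004 to -0.007 on the log2 scale. With the replicate block the counts were 192 and 64. Replicate 1 minus replicate 2 correlated at 0.06 between HDM and Grass, and at -0.18 to 0.16 between other groups. No strong effect shared by replicate number was seen, but such correlations cannot tell whether libraries of the same number were handled together. edgeR also called 192 of the higher and 71 of the lower genes, and DESeq2 130 and 31. With 2 libraries a group, uncalled differences are not shown to be absent.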

Other observations

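Some called genes lie side by side in RefSeq's gene order. Exoc3, an exocyst subunit gene next to Ahrr, was at 68.6 and 64.8 with HDM and 44.3 and 45.7 with Grass, against 44.1 and 46.0 untreated (log2 0.57 ± 0.04, SE; limma adjusted p = 9.6e-10). Ncf4, Csf2rb2 and Csf2rb follow each other and were higher by 0.54, 0.76 and 1.04. Mpp6 and Dfna5 were higher by 0.16 and 0.80, Cenpc1 and Stap1 by 0.20 and 0.28, and Crtc1 and Klhl26 were lower by 0.18 and 0.26. The calls of Crtc1 and Klhl26 (limma adjusted p = 0.047 and 0.05 as rounded) ended without any 1 HDM, Grass or Cat library (up to 0.30 and 0.40 without an HDM or Grass library), with the replicate block and with DESeq2 (0.25 and 0.30). The Mpp6 call ended without HDM 2 or Grass 2 (up to 0.15), and that of Cenpc1 without HDM 2, Grass 1 or Grass 2 (up to 0.20) and with DESeq2 (0.098). Cdc6 and Rara are adjacent with opposite directions (-0.16 and 0.30). The strand setting of the counting is not given in the sources used here, and whether reads running past a gene's end were counted for its neighbour was not tested.

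Beyond the lists stood 209 of the 265 called genes. Rara, the retinoic acid receptor alpha gene, was at 68.6 and 67.2 with HDM and 54.8 and 55.3 with Grass, and untreated at 64.6 and 69.5. Pdgfb, a growth factor, was at 45.5 and 44.7 with HDM and 35.8 and 33.1 with Grass, below the untreated 64.8 and 67.8. Catalase (gene symbol Cat), which destroys hydrogen peroxide and was not on the Nrf2 list, was at 493 and 490 with HDM, 538 and 537 with Grass and 394 and 424 untreated (log2 -0.13, limma adjusted p = 0.014). Leaving out any 1 HDM or Grass library ended it (up to 0.21).

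Besides the Amd pair, 3 uncalled genes with a mean of at least 2 differed 2-fold or more: Rpl34-ps1 (-2.35, limma adjusted p = 0.38), Gm12191 (-1.39, 0.91) and Gm4070 (-1.23, 0.90). Their values jumped within groups, as from 17.7 to 0 between the Grass libraries for Gm12191. DESeq2 called Amd1 and Amd2 (adjusted p = 0.0087 and 1.3e-07), and edgeR did not (0.12 and 0.07).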
